A study of Homo sapiens with 6 samples.

Results

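The plasminogen activation system was followed through 7 genes, taken by name from the gene count table: the activators PLAU and PLAT, the receptor PLAUR, the surface docking pair ANXA2 and S100A10, and the serpins SERPINE2 and SERPINB2. All 7 were among the 14520 genes tested, of 58735 in the table. RNA sequencing had been run on 6 libraries from MDA-MB-231, a long-established triple-negative line of human breast cancer. In 3 libraries the cells carried the genotype DNAJC12 overexpression, after transfection with the vector that the labels call DNAJC12v, and in the other 3 they were controls given the empty vector. The protein DNAJC12 is a J-domain co-chaperone. Library totals ran from 17967283 to 18887497 counts. The sources used here give neither the time after transfection nor the amount of vector. They do not state whether replicates were separate cultures, so p-values reflect only how far these samples vary, and that variation may be technical.

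Plasminogen activators are serine proteases that cut plasminogen into plasmin, a broad protease that dissolves fibrin, degrades matrix and releases growth factors. Urokinase, from PLAU, works at the cell surface bound to its receptor PLAUR, while tissue-type activator, from PLAT, is known for fibrinolysis. ANXA2 and S100A10 form a complex on the outer membrane that holds plasminogen and tissue-type activator, and serpins trap the activators as inactive complexes. Breast cancer cells with mesenchymal traits, MDA-MB-231 among them, are known for a highly active urokinase system.

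The promoters of SERPINB2 and PLAUR are shown because these genes had the log2 fold changes farthest below 0, and that of ANXA2 because it held the same motif without such a difference. Sequences are from RefSeq (GRCh38.p14), 250 bases before the annotated start, written 5′ to 3′ on the gene's strand. Capitals mark TGANTCA, the letters bound by AP-1 factors, TGANNTCA, a spaced form that includes the cAMP response element, and TATAAA, the TATA box, each searched on both strands. No 2 marked motifs overlap. Each window shown lies inside the span given below for its counted gene, so the start used here is not the outermost start of that gene.
SERPINB2 (chr18:63887455-63887704, plus strand): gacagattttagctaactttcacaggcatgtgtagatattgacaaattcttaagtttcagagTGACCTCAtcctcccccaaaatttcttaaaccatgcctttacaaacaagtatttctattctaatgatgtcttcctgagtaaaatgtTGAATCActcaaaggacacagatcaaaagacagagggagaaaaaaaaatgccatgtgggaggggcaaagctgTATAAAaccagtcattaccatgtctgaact
PLAUR (chr19:43670170-43670419, minus strand): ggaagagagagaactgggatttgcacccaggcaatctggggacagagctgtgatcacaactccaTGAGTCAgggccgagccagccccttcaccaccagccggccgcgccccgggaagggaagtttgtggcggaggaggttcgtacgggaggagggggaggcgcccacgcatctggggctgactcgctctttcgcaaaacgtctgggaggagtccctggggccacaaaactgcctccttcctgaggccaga
ANXA2 (chr15:60397987-60398236, minus strand): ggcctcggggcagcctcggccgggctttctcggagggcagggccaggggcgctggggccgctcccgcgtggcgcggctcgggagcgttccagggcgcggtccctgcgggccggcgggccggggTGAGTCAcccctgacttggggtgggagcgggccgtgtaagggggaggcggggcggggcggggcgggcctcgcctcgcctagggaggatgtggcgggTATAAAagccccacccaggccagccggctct
The SERPINB2 window held TGAATCA at 102 to 96 bases before the start, TGACCTCA at 188 to 181 and TATAAA at 30 to 25. The PLAUR window held TGAGTCA at 186 to 180 bases before the start, and the ANXA2 window held TGAGTCA at 127 to 121 and TATAAA at 31 to 26. Of all 35116 promoter windows in the table, 6.57% held TGANTCA, 10.1% TGANNTCA and 10.7% TATAAA. The table gave 8 windows for 6 of the 7 genes, and those of PLAU, SERPINE2 and S100A10 held none of these letters. PLAT was not in it. The motifs were chosen with the sequences in view, and a match is a description of letters only.

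SERPINB2 fell with DNAJC12, by the widest margin among the 7 genes, and it was the one that passed the test across all genes. It encodes plasminogen activator inhibitor type 2, a clade B serpin that inhibits urokinase and tissue-type activator and is found largely inside cells. The gene (ENSG00000197632, plus strand of chromosome 18, 63871692 to 63903890 in GRCh38) was counted 19, 7 and 19 times in overexpression replicates 1 to 3, against 161, 113 and 113 times in empty vector replicates 1 to 3. Scaled to library size (CPM, with edgeR's TMM factors) these were 0.952, 0.443 and 0.993 with DNAJC12 and 8.64, 6.29 and 6.02 with the empty vector. Every overexpression library lay under every empty vector library. The log2 fold change was -3.10 ± 0.37 SE, or 8.60-fold lower, and edgeR's quasi-likelihood test gave a Benjamini-Hochberg adjusted p of 0.00604. In bulk RNA, fewer cells carrying a transcript and less of it per cell cannot be told apart.

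Low counts limit the SERPINB2 estimate. The 7 counts of overexpression replicate 2 have an exact 95% Poisson interval of 2.81 to 14.4 counts, and the lower bound for each empty vector library was at least 93.1 counts. These intervals cover counting error only. Without overexpression replicate 3 the adjusted p was 0.0505, at a log2 fold change of -3.28. With limma on log2(FPKM + 1) the fold change was -1.45, since a pseudocount understates changes of genes with low values.

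SERPINE2 was higher in all 3 overexpression libraries and stood at the edge of the threshold. It encodes protease nexin 1, a secreted serpin that inhibits thrombin, urokinase and plasmin. The gene (ENSG00000135919, minus strand of chromosome 2, 223975112 to 224039319) had 43.6, 42.6 and 45.6 CPM with DNAJC12, against 24.2, 17.9 and 22.0 CPM with the empty vector. The overexpression libraries differed among themselves by a coefficient of variation of 3.40%, the smallest of the 7 genes, and the groups did not overlap. The log2 fold change of 1.04 ± 0.22 SE came with an edgeR adjusted p of 0.0538. The DESeq2 Wald test, which called 3.89% of all genes, called SERPINE2 (adjusted p = 0.00213). Its edgeR adjusted p was 0.0488 without overexpression replicate 1, where 1.68% of all genes were called, and 0.00252 without replicate 2, where 22.5% were. It was 0.304 without replicate 3, where 0.168% were called, and 0.2 to 0.311 without an empty vector library.

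The ratio between the 2 serpins separated the groups. In FPKM, counts scaled to gene length and library depth as deposited, SERPINE2 stood at 4.83, 4.78 and 5.04 with DNAJC12 and at 2.69, 2.01 and 2.46 with the empty vector. SERPINB2 stood at 0.341, 0.161 and 0.355 FPKM with DNAJC12 and at 3.11, 2.28 and 2.18 FPKM with the empty vector. The ratio of SERPINE2 to SERPINB2 was 14.2, 29.8 and 14.2 with DNAJC12, against 0.866, 0.878 and 1.13 with the empty vector. Each overexpression ratio lay far above the control range. With the empty vector the transcripts did not differ beyond their spread per length, and SERPINE2 was the higher in replicate 3 alone. The summed FPKM of both genes was 5.17 ± 0.23 with DNAJC12 and 4.91 ± 0.79 with the empty vector (SD, n = 3 each), and on that sum the groups overlapped. Both readings rest on the deposited lengths, 8891 bases for SERPINE2 and 2748 for SERPINB2. In CPM, SERPINE2 was the higher in every library, at ratios of 2.80, 2.84 and 3.65 with the empty vector. Neither the near-equal levels nor the overlap of the sums therefore carries over to CPM. An exact two-sided permutation test on the log2 ratio gave p = 0.1, the smallest that 3 against 3 libraries allow, and the ratio was chosen after its values were seen.

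**Figure D1:**
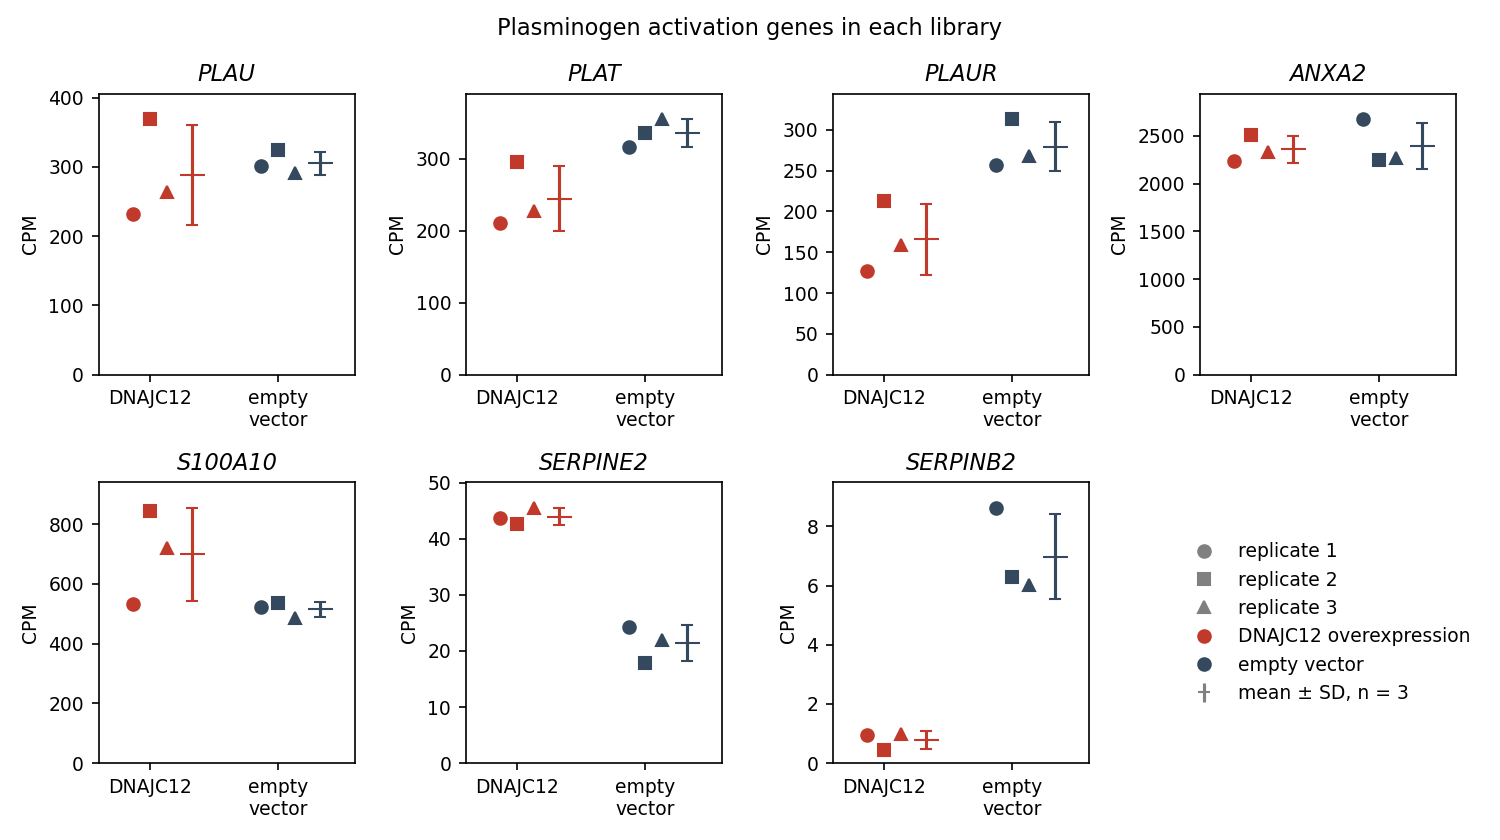
CPM (linear axes from 0) of the 7 genes in each library, with DNAJC12 overexpression in red and empty vector in dark blue, symbols for the replicate number and bars for mean ± SD (n = 3). SERPINB2, PLAUR and PLAT lie lower and SERPINE2 higher in every overexpression library, while PLAU, ANXA2 and S100A10 overlap between groups.

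The urokinase receptor PLAUR was lower in every overexpression library, whereas its ligand PLAU was not. PLAUR encodes a lipid-anchored receptor that focuses urokinase at the leading edge of moving cells. The gene (ENSG00000011422, minus strand of chromosome 19, 43646095 to 43670547) had 127, 212 and 159 CPM with DNAJC12, against 257, 313 and 268 CPM with the empty vector. The highest overexpression value, in replicate 2, still lay under the lowest control value. The log2 fold change was -0.75 ± 0.23 SE and did not pass the edgeR test (adjusted p = 0.178). It was called without overexpression replicate 2, at -0.97 (adjusted p = 0.00179), a fit that called 22.5% of all genes, and after a correction for transcript GC content, at -0.69 (adjusted p = 0.000616), a fit that called 17.6%. It was also called with no filter on low counts (adjusted p = 0.0352), where 2.52% of genes were called.

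PLAU itself had overlapping values. The gene (ENSG00000122861, plus strand of chromosome 10, 73909177 to 73917497) had 231, 369 and 264 CPM with DNAJC12, against 301, 324 and 291 CPM with the empty vector. Overexpression replicate 2 was the highest of all 6 libraries and replicate 1 the lowest. The log2 fold change was -0.08 ± 0.22 SE (adjusted p = 0.905 by edgeR), and it was 0.04 without overexpression replicate 1. C10orf55, on the opposite strand across PLAU, held 0.260 to 0.586% as many counts as PLAU, and no source used here says whether counting used the strand.

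Among the overexpression libraries, the ratio of PLAU to PLAUR within a library varied less than either gene. PLAU varied by a coefficient of 25.0% and PLAUR by 26.1% among the overexpression CPM values, against 5.48% and 10.7% with the empty vector, where the ratio varied no less than PLAU. The FPKM ratio of PLAU to PLAUR was 2.76, 2.62 and 2.51 with DNAJC12, against 1.77, 1.56 and 1.64 with the empty vector. All 3 overexpression ratios lay above all 3 control ratios. The mean was 2.63 ± 0.12 with DNAJC12 and 1.66 ± 0.10 with the empty vector (SD, n = 3 each), a difference of 0.67 on the log2 scale, and 0.63 to 0.72 when any 1 library was left out. The exact two-sided permutation p was 0.1, the smallest possible, and this ratio too was chosen after its values were seen.

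**Figure D2:**
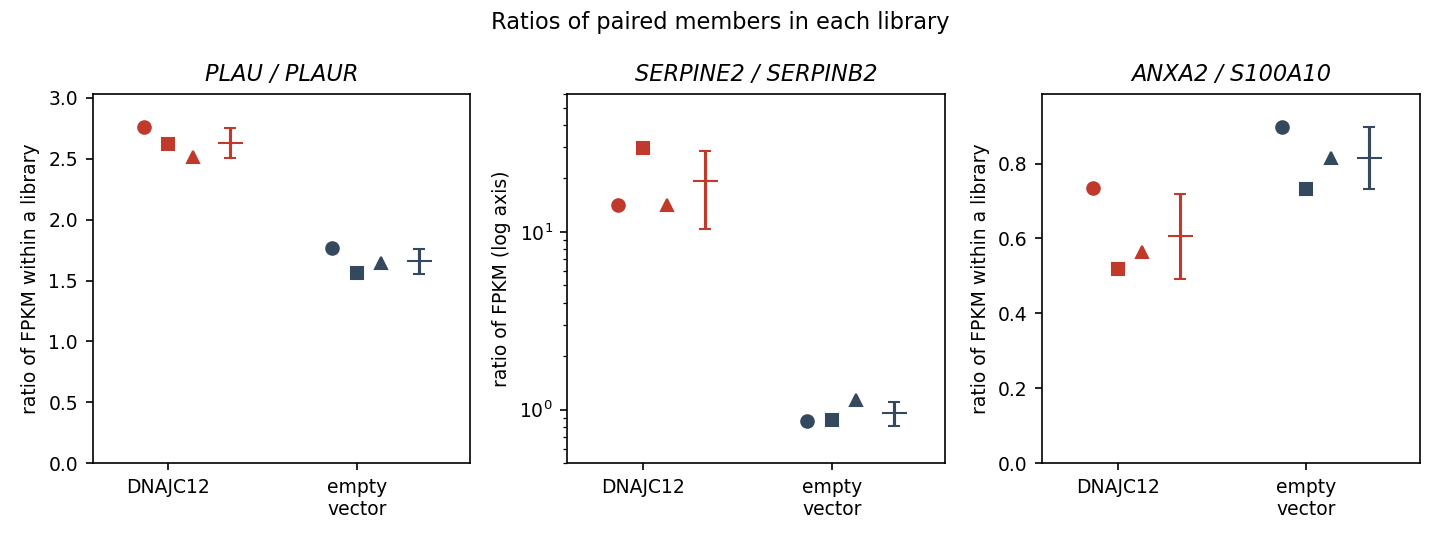
Ratio of deposited FPKM between paired genes within each library, with DNAJC12 overexpression in red, empty vector in dark blue, circles, squares and triangles for replicates 1, 2 and 3, and bars for mean ± SD (n = 3). The middle axis is logarithmic. The ratios of PLAU to PLAUR (2.51 to 2.76 with DNAJC12, 1.56 to 1.77 with the empty vector) and of SERPINE2 to SERPINB2 separate the groups, and the ratio of ANXA2 to S100A10 does not.

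PLAT, the tissue-type activator, was also lower in every overexpression library, by a smaller step. The gene (ENSG00000104368, minus strand of chromosome 8, 42175233 to 42207724) had 211, 296 and 227 CPM with DNAJC12, against 316, 336 and 355 CPM with the empty vector. Overexpression replicate 2 came closest to the controls. The log2 fold change was -0.46 ± 0.20 SE and did not pass (adjusted p = 0.351 by edgeR). Without overexpression replicate 2 it was -0.62 and was called (adjusted p = 0.00887), as were 22.5% of all genes.

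The docking pair was abundant in both groups. ANXA2, an annexin that binds phospholipid in the presence of calcium, had 2235, 2505 and 2328 CPM with DNAJC12, against 2675, 2246 and 2271 CPM with the empty vector (ENSG00000182718, minus strand of chromosome 15, 60347134 to 60402883). The groups overlapped, and the log2 fold change of -0.02 ± 0.18 SE (adjusted p = 0.968 by edgeR) was 0.0036 with overexpression replicate 1 left out and 0.05 with empty vector replicate 1 left out. Its processed pseudogene ANXA2P2 held 5.51 to 6.01% as many counts as ANXA2 in each library, so counts may be split between near-identical copies. Summed with its 3 pseudogenes, ANXA2 had a log2 fold change of -0.03.

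S100A10, the partner that ties ANXA2 into a heterotetramer, had 532, 843 and 722 CPM with DNAJC12, against 522, 537 and 487 CPM with the empty vector (ENSG00000197747, minus strand of chromosome 1, 151982915 to 151994390). Replicates 2 and 3 of overexpression lay above every control, and replicate 1 lay within the control range. The log2 fold change of 0.44 ± 0.22 SE had an adjusted p of 0.404 by edgeR. After GC correction, a fit that called 17.6% of all genes, the edgeR adjusted p was 0.0128. The FPKM ratio of ANXA2 to S100A10 was 0.734, 0.520 and 0.564 with DNAJC12, against 0.896, 0.731 and 0.816 with the empty vector. Overexpression replicate 1 and empty vector replicate 2 met in this ratio, and the exact two-sided permutation p was 0.2.

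Per gene length, the order of the 7 transcripts was nearly fixed. S100A10 came first in every library, at 448 ± 103 FPKM with DNAJC12 and 332 ± 17.0 FPKM with the empty vector (SD, n = 3 each), followed by ANXA2 at 264 ± 17.2 and 270 ± 25.6 FPKM in the same groups. PLAU came next in every library, at 96.6 ± 24.9 FPKM with DNAJC12 and 103 ± 5.96 FPKM with the empty vector. PLAUR exceeded PLAT in each empty vector library, at 62.3 ± 6.95 against 50.5 ± 3.12 FPKM. With DNAJC12 the 2 did not differ beyond their spread, at 36.8 ± 9.90 FPKM for PLAUR and 36.6 ± 7.02 FPKM for PLAT, and PLAT was the higher in replicate 1. The serpins came last. The deposited lengths cover all annotated exons of a gene (8824 bases for ANXA2, 1543 for S100A10), which lowers the FPKM of genes with many isoforms.

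Among all 14520 tested genes, 1.25% were called by edgeR and 0.661% were called lower with DNAJC12, and among the 7 genes 1 was, SERPINB2, as lower. At an unadjusted p under 0.05 there were 4 of 7, against 14.1% of all genes. The groups did not overlap in 4 of the 7, against 20.1% of all genes. Of these 3 were lower with DNAJC12, against 10.8% of all genes, and 1 was higher, against 9.26%. The median log2 fold change of the 7 was -0.08 and that of all tested genes 0.05. Under DESeq2, where 3.89% of genes were called, SERPINB2 and SERPINE2 passed, and after GC correction, where 17.6% were called, 4 did, SERPINB2, SERPINE2, PLAUR and S100A10.

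**Figure D3:**
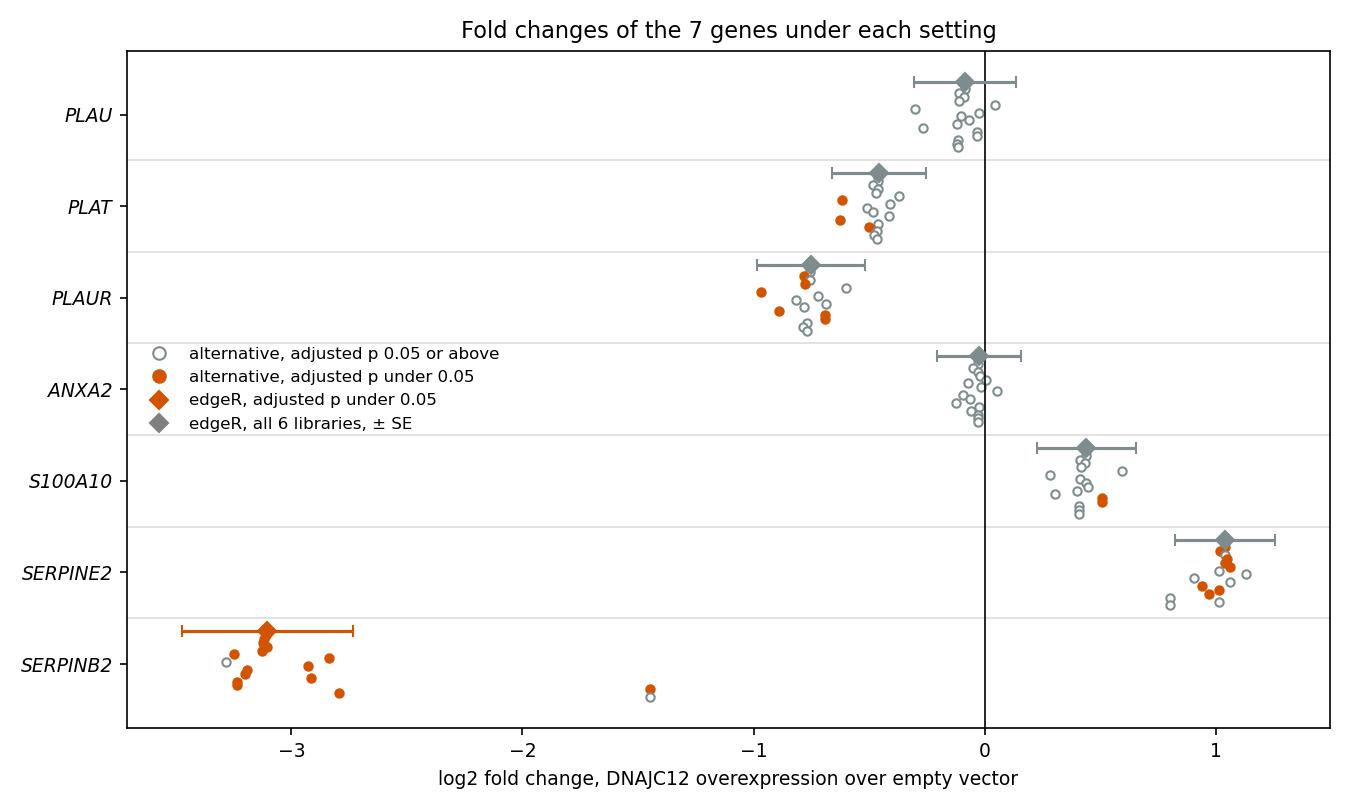
Log2 fold change of DNAJC12 overexpression over empty vector for each gene, with the edgeR fit of all 6 libraries as a diamond ± SE and each alternative as a circle, filled orange where the adjusted p is under 0.05. SERPINB2 stays near -3 except on log2(FPKM + 1), and PLAU and ANXA2 cluster about 0 with no call.

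Replicate 2 of overexpression gave the highest or the lowest overexpression value of each of these genes, though for SERPINE2 by little (42.6 CPM against 43.6 and 45.6). PLAU, PLAUR, PLAT, ANXA2 and S100A10 had their highest overexpression value in it, and SERPINE2 and SERPINB2 their lowest. The transcripts of SERPINE2 and SERPINB2 have a GC content of 41.0% each, higher than 18.7% and 18.5% of tested genes, while S100A10 at 56.2% exceeds 73.5% and PLAUR at 55.7% exceeds 72.1%. After GC correction the log2 fold changes were -3.23 for SERPINB2, 1.01 for SERPINE2, -0.69 for PLAUR, -0.46 for PLAT and -0.03 for PLAU.

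DNAJC12 had 522, 523 and 492 counts in the overexpression libraries and 1, 0 and 0 in the empty vector libraries. Of 5 genes high in MDA-MB-231, the summed level was 3753 to 5259 CPM with DNAJC12 and 4208 to 4531 CPM with the empty vector. Of 5 genes listed as low or absent in it, 2, ESR1 and PGR, were under 1 CPM in every library and ERBB2, EPCAM and CDH1 were not, and the 5 summed to 79.1 to 127 CPM with DNAJC12 and 104 to 131 CPM with the empty vector. All 5 leukocyte markers were under 1 CPM in every library. Of 5 endothelial markers, 3 were under 1 CPM in every library, and their sum was 6.32 to 9.92 CPM with DNAJC12 and 17.8 to 25.9 CPM with the empty vector. Of 5 fibroblast markers, 2 were under 1 CPM in every library, and their sum was 53.0 to 83.4 CPM with DNAJC12 and 32.2 to 38.5 CPM with the empty vector. The part of these marker differences in the results was not tested.

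The profile of SERPINB2 over the 6 libraries was most like that of IL1B, the cytokine interleukin-1 beta. Likeness was the root mean square difference of log2 CPM, each gene centred on its own mean, among the 9678 genes coding for protein whose mean reached 5 CPM. It was 0.31 for IL1B, which had 25.2, 24.5 and 27.3 CPM with DNAJC12 and 239, 199 and 214 CPM with the empty vector. The likeness lay in the difference between groups, a log2 fold change of -3.08 for IL1B and -3.10 for SERPINB2. Among the overexpression libraries SERPINB2 dropped in replicate 2 (0.443 against 0.952 and 0.993 CPM), while IL1B varied little. MUC5B, a gel-forming mucin, followed at 0.48 and CD24, a surface glycoprotein, at 0.49. For PLAU the nearest were CSRP1, a LIM-domain protein of the cytoskeleton, at 0.02, ACSF2, an acyl-CoA synthetase family member, at 0.02, and MTSS1L at 0.03. Among the 7 genes themselves, PLAU and ANXA2, and PLAT and PLAUR, were closest, at 0.19 each, then PLAU and PLAT, at 0.20, and SERPINE2 and SERPINB2 were the farthest apart, at 2.06.

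Other genes of the system gave no call in edgeR with all 6 libraries, a fit that called only 1.25% of all genes. Of 16 tested partners and clearance receptors of the urokinase receptor, 2 higher and 2 lower genes had an unadjusted p under 0.05, against 14.1% of all genes. DESeq2, which called 3.89% of all genes, called 1 of them and limma on log2(FPKM + 1), which called 1.24% of all genes, none, and the median log2 fold change was 0.25. Without overexpression replicate 2, a fit that called 22.5% of all genes, edgeR called 9 of them, and without replicate 1, where 1.68% were called, it called 1. Of the 16, 4 were higher and 2 lower without overlap, against 9.26% and 10.8% of all genes. ITGA3, an integrin alpha subunit, had 2131, 3900 and 2612 CPM with DNAJC12 and 1477, 1774 and 1553 CPM with the empty vector (log2 fold change 0.85, adjusted p = 0.154 by edgeR), without overlap. ITGB1, the integrin beta subunit that pairs with it, overlapped between groups, at 0.26. LRP1, which takes up serpin-bound urokinase with its receptor, had 34.8, 59.7 and 38.2 CPM with DNAJC12 and 64.3, 94.9 and 81.8 CPM with the empty vector (-0.86, adjusted p = 0.175 by edgeR). It was named after its values were seen, as was EGFR, a signalling partner of the receptor, at 0.89 (adjusted p = 0.155 by edgeR), which was the 1 call of DESeq2.

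Among 10 tested plasmin substrates, 2 higher and 2 lower genes had an unadjusted p under 0.05, against 14.1% of all genes. DESeq2, which called 3.89% of all genes, called 3, and limma, which called 1.24%, none, at a median of -0.06. With overexpression replicate 2 left out, edgeR called 5, against 22.5% of all genes. Of the 10, 2 were higher and 2 lower without overlap, against 9.26% and 10.8% of all genes. THBS1, the matrix glycoprotein thrombospondin, had 859, 488 and 743 CPM with DNAJC12 and 355, 328 and 376 CPM with the empty vector, without overlap (0.98 ± 0.24 SE, adjusted p = 0.0896 by edgeR). CDCP1, a membrane glycoprotein cut by plasmin, overlapped, at -0.15. Named after their values were seen, FN1, fibronectin, stood at 0.76 (adjusted p = 0.0917 by edgeR) and MMP3, the metalloprotease stromelysin, at -2.06 (adjusted p = 0.095 by edgeR). Low counts limit the MMP3 estimate. Its mean was 0.299 ± 0.175 CPM with DNAJC12 and 1.25 ± 0.273 CPM with the empty vector (SD, n = 3 each). MMP1, also lower without overlap and named after its values were seen, was far more abundant. Its mean was 174 CPM with DNAJC12 and 280 CPM with the empty vector (-0.69, adjusted p = 0.206 by edgeR). THBS1, FN1 and MMP3 were the 3 that DESeq2 called.

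Of 12 listed plasma components, 7 were tested and 1 was higher at an unadjusted p under 0.05, against 14.1% of all genes. DESeq2 and limma, which called 3.89% and 1.24% of all genes, called none, and the median was 0.17. PLG, plasminogen itself, did not pass the filter on low counts. F12, coagulation factor XII, stood at 0.0044. Of 4 other plasminogen receptors, none had an unadjusted p under 0.05 and neither DESeq2 nor limma called any, at a median of -0.11. Without overexpression replicate 2, edgeR called 1 of them, against 22.5% of all genes. ENO1, alpha-enolase, a glycolytic enzyme that also binds plasminogen at the surface, stood at -0.36, and KRT8, a keratin, at 0.31, both with overlapping groups.

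Relatives of the members gave no call in that edgeR fit either, against 1.25% of all genes. Of 12 other clade B serpins, 5 were tested, and 1 higher and 1 lower gene had an unadjusted p under 0.05, against 14.1% of all genes. DESeq2 and limma, which called 3.89% and 1.24% of all genes, called none, and the median was -0.02. The edgeR fit without overexpression replicate 2 called 2, against 22.5% of all genes. The abundant SERPINB1, an inhibitor of neutrophil proteases, and SERPINB6 had 213 ± 24.2 and 193 ± 32.5 CPM with DNAJC12 and 229 ± 14.0 and 196 ± 21.7 CPM with the empty vector (SD, n = 3 each). SERPINB10, which overlaps SERPINB2 on the same strand, had 0 counts in all 6 libraries. Of 11 tested annexins besides ANXA2, 10 had a fold change above 0 (54.9% of all genes did) and 2 an unadjusted p under 0.05 (14.1% of all genes), both higher, DESeq2 and limma called none, and the median was 0.42. In the fit without overexpression replicate 2, edgeR called 5 of these, against 22.5% of all genes. ANXA5 and ANXA6, the most abundant, stood at 0.19 and -0.09.

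Transcription factors known to act on the promoters of PLAU, PLAUR or SERPINB2 gave no call in edgeR, against 1.25% of all genes. Of 12 tested, 9 had a fold change above 0, against 54.9% of all genes. Of the 12, 6, all higher, had an unadjusted p under 0.05, against 14.1% of all genes. DESeq2, which called 3.89% of all genes, called 1, and limma, which called 1.24%, none, at a median of 0.36. Leaving out overexpression replicate 2, edgeR called 4, against 22.5% of all genes. JUN, an AP-1 subunit, had 734, 839 and 869 CPM with DNAJC12 and 550, 798 and 746 CPM with the empty vector. FOSL1, another AP-1 subunit, had 387, 695 and 454 CPM with DNAJC12 and 538, 596 and 523 CPM with the empty vector. Both overlapped between groups, at log2 fold changes of 0.22 and -0.11. The other AP-1 subunits of the list were named after their values were seen. FOS (0.49) and JUND (0.68) were higher without overlap, while JUNB (0.56), FOSB (0.25) and FOSL2 (-0.12) overlapped. Of the 12 factors, 5 were higher without overlap and 0 lower, against 9.26% and 10.8% of all genes. ETS1, ETS2 (0.65) and NFKB1 (0.47) were the others of these 5, also named after their values were seen. ETS1, which was the 1 call of DESeq2 and was named after its values were seen, stood at 0.85 (adjusted p = 0.141 by edgeR).

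**Figure D4:**
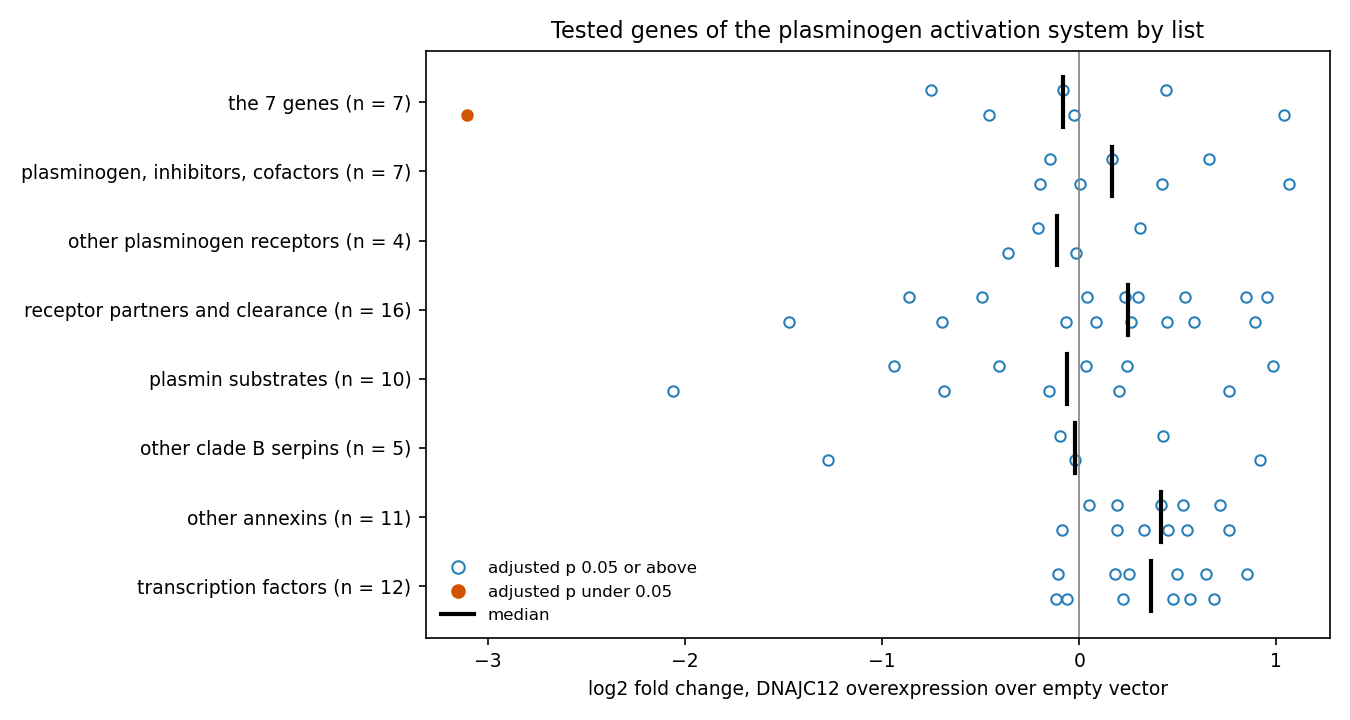
Log2 fold change of DNAJC12 overexpression over empty vector for each tested gene, as circles, in the 7 genes and in 7 lists of related genes, with the number tested beside each name and the median as a black bar. SERPINB2, in orange, is the one gene with an adjusted p under 0.05 by edgeR.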

How the data were processed

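The deposited tables held, for 58735 genes and 6 libraries, the count of reads per gene and the FPKM per gene, as the authors deposited them. The submitters' processing notes name HISAT2 2.0.5 and hg19, yet all 58735 gene coordinates equal those of GENCODE 29 on GRCh38, so GRCh38 is given. How reads were counted, and whether by strand, is not given in the sources used here.

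The main test was edgeR's quasi-likelihood F test (version 4.0.16, R 4.3.3; TMM, filterByExpr with minimum count 10 and minimum total 15, robust dispersions), with Benjamini-Hochberg adjustment across 14520 genes and a threshold of 0.05. The SE is the log2 fold change divided by the square root of F. Alternatives were DESeq2 1.42.0 (size factors, Wald test), no filter, 1 CPM in 3 libraries, the replicate number as a block, leaving out libraries, GC correction (loess of log2 CPM, prior count 2, on the GC content of the longest transcript, span 0.3) and limma 3.58.1 on log2 FPKM with pseudocounts 1 and 0.1 (filter 0.5 FPKM in 3 libraries, or none). The main test and these alternatives were tried on simulated data, except leaving out libraries, GC correction with the block and limma with no filter. Figures were drawn with matplotlib 3.10.9 from tables made in pandas 2.3.3 (Python 3.11.15).

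The members and lists were chosen with earlier results of these data known. Named were the 7 genes, DNAJC12, called genes of each list (up to 6) or its 2 most abundant, the 3 nearest profiles of SERPINB2 and PLAU, and overlapping or near-identical genes. Some genes that met the rule are not reported here.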

Additional observations from a re-analysis of the deposited data

How the results depend on the processing

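SERPINB2, SERPINE2, PLAUR, PLAT and S100A10 kept their direction under every alternative run. PLAU turned to 0.043 without overexpression replicate 1, and ANXA2 to 0.0036 and 0.053 without overexpression replicate 1 and empty vector replicate 1. SERPINB2 missed the threshold on log2(FPKM + 1) with no filter (-1.45, adjusted p = 0.059 by limma). That fit also took in genes under the FPKM filter and called 12 of all genes. Fits without 1 library gave log2 fold changes of -0.30 to 0.043 for PLAU, -0.62 to -0.37 for PLAT, -0.97 to -0.60 for PLAUR, -0.093 to 0.053 for ANXA2, 0.28 to 0.59 for S100A10, 0.90 to 1.13 for SERPINE2 and -3.28 to -2.84 for SERPINB2. They called 0 to 4 of the 7 genes and 25 to 3366 of all genes.

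All genes called were 565 by DESeq2, 688 with no filter, 1937 with the replicate block, 2754 without both libraries numbered 2, 2560 after GC correction, 2978 with GC correction and the block, and 12 on log2(FPKM + 1) with no filter, against 181. In the same order, the members called were 2, 3, 3, 4, 4, 5 and 0. SERPINE2 became called with DESeq2 (1.04), no filter (1.02), the block (1.05), without both libraries numbered 2 (0.94), after GC correction (1.01) and with both corrections (0.97). PLAUR became called with no filter (-0.78), the block (-0.78), without both libraries numbered 2 (-0.89), after GC correction (-0.69) and with both (-0.69). PLAT became called without both libraries numbered 2 (-0.63) and with GC correction and the block (-0.50), and S100A10 after GC correction and with both (0.51 each). The cause was not tested.

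None of the lists had a call in edgeR with all 6 libraries, a fit that called 1.25% of all genes. Without 1 library, other plasminogen receptors gave 0 to 1 calls, receptor partners 0 to 9 and plasmin substrates 0 to 5. In the same fits clade B serpins gave 0 to 2, annexins 0 to 5 and transcription factors 0 to 4. Those fits called 25 to 3366 of all genes. With the block, which called 1937 of all genes, receptor partners gave 6, substrates 4, serpins 2, annexins 2 and factors 4. Without both libraries numbered 2 (2754 of all genes) they gave 8, 5, 1, 3 and 4, with 1 other receptor. After GC correction (2560 of all genes) they gave 7, 4, 2, 3 and 5, with 2 other receptors and 1 plasma component. With the block added (2978 of all genes) they gave 8, 5, 3, 3 and 7, again with 2 and 1. DESeq2 (565 of all genes) gave 1 receptor partner, 3 substrates and 1 factor, and no filter (688 of all genes) gave 3, 2 and 1.

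Whether replicate numbers pair the samples could not be decided. Deviations from group means of libraries with the same number correlated at 0.45, 0.58 and 0.03. The first 2 were the highest for their overexpression library, whereas overexpression replicate 3 correlated best with empty vector replicate 1, at 0.22. Deviations from a mean of so few libraries are not independent, so these correlations cannot settle it, and the replicate block is given here only. Depth limits SERPINB2 most, with 45 counts in all overexpression libraries against 387 with the empty vector.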
